A study of Caenorhabditis elegans with 15 samples.

Results

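The galectin genes of Caenorhabditis elegans carry the symbol lec, and 10 of them (lec-1, lec-2, lec-3, lec-4, lec-5, lec-6, lec-8, lec-9, lec-10 and lec-11) were examined here among the 46778 genes of the count table. They were found by gene symbol, with earlier results of these data known when the family was chosen, and all 10 were present and passed the filter on low counts. Whole worms of the N2 strain were exposed to silver (Ag) nanoparticles at 10 µg/ml, to silica (SiO2) nanoparticles at 10 µg/ml, or to no particles (Control), and total RNA was sequenced from 5 samples of each group. Wells held 350 to 400 larvae of the first stage, fed E. coli OP50 and grown for 72 hours at 21 °C to adult day 1. The sample labels place the incubation with particles at adult day 1, whereas the methods describe larvae growing up with the particles, so the stage at which exposure began differs between the descriptions. The question asked of these genes was whether either particle changed their RNA and whether the particles differed from each other.

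Galectins are lectins that bind beta-galactosides on glycoproteins and glycolipids. The worm family includes tandem-repeat galectins such as LEC-1, with a pair of carbohydrate-recognition domains in one chain, and prototype galectins such as LEC-6, with a single domain. LEC-6 binds a galactosyl-fucose unit on the core of N-glycans, LEC-8 binds glycolipids and has been linked to the response to a Bacillus thuringiensis crystal toxin, and loss of lec-10 has been linked to sensitivity to oxidative stress.

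The silver exposure came with more lec-8 RNA, at 1.46 times the Control level. The silica exposure came with less lec-11 RNA, at 0.732 times the Control level. Set directly against each other, silica worms had less lec-8, lec-10 and lec-11 RNA than silver worms. No other member passed the test in any of the 3 comparisons. A gene is named as called, higher or lower, where its p from edgeR, adjusted by Benjamini-Hochberg over all genes tested, was under 0.05.

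The members are spread over chromosomes II, III, IV, V and X in the WBcel235 build. On chromosome II lie lec-1 (13195549 to 13199713, plus strand), lec-2 (10009608 to 10016183, minus strand), lec-3 (9991112 to 10000351, plus strand) and lec-5 (5839639 to 5841103, minus strand). Chromosome III holds lec-4 (3771425 to 3773326) and lec-6 (599510 to 600366), both on the minus strand. On the X chromosome are lec-8 (9850571 to 9851336) and lec-9 (17600487 to 17601503), both on the plus strand. The others are lec-10 on chromosome V (6488203 to 6489120) and lec-11 on chromosome IV (6588184 to 6590154), both on the minus strand. Some members have close neighbours. The genes lec-2 and lec-3 lie 9256 bases apart on opposite strands, lec-8 lies 704 bases from lec-7, lec-3 shares 17 exon bases with nlt-1 on the other strand, and lec-11 shares 3 with dnj-11. The strand setting of the counting was not given in the sources used here, so reads in those shared bases cannot be assigned to a strand.

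By coding length the members fell into 2 classes that the selection did not use. The longest coding sequences of lec-6, lec-8, lec-9, lec-10 and lec-11 were 146, 180, 140, 192 and 232 amino acids. Those of lec-1, lec-2, lec-3, lec-4 and lec-5 were 285, 1245, 337, 283 and 314 amino acids. They are called the short and the long members from here on, a division made after values of these genes had been seen.

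Each library held between 16560734 (Ag replicate 8) and 24296570 (SiO2 replicate 12) reads assigned to genes, and no sample was a copy of another. Replicates differed by more than sampling noise in every group. Values are CPM, read counts expressed relative to the size of the library, scaled by the trimmed mean of M-values (TMM). Each member was read well above the filter, between 712 reads for lec-4 and 47308 reads for lec-2 in a single library. None of the tissue marker genes was at 0 in all samples, and the adult yolk genes summed to between 48756 and 68086 CPM.

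Levels can be set beside each other between genes only per exon length. The length used, also for Kallisto, joins the exons of all transcripts of a gene. For lec-2 that was 4374 bases, with coding sequences of 278 to 1245 amino acids, and for lec-3 2657 bases, with 45 to 337. Where short transcripts predominate, such a level is too low, and the order below could differ. Which transcripts were present was not tested. Per kilobase of exon, lec-6 was the most abundant member at a mean of 725 CPM per kb over the 15 samples and stood above the next gene, lec-8, in 15 of 15. Then came lec-8 at 468, lec-9 at 379, lec-2 at 361, lec-1 at 321, lec-10 at 250.1 and lec-5 at 195 CPM per kb. The last 3 members were far lower, at 48.9 for lec-4, 41.5 for lec-11 and 39.4 CPM per kb for lec-3. Neighbours in this order were not all apart, since lec-9 was above lec-2 in only 7 of 15 samples and lec-11 above lec-3 in 9 of 15. In contrast, lec-5 was above lec-4 in 15 of 15. The position of lec-6 rested on the counting, because the deposited estimates of Kallisto, which assigns reads to transcripts rather than counting alignments to the genome, held only 43.7 to 50% of the lec-6 reads that HTSeq counted, and lec-6 then ranked behind lec-8 and lec-2. In plain CPM, without dividing by length, lec-2 supplied 30.1 to 57.2% of the family's reads.

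**Figure D1:**
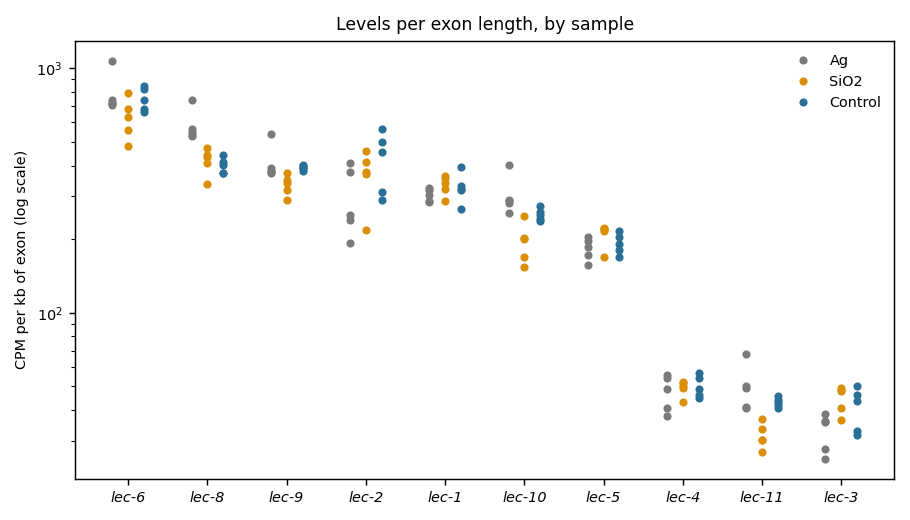
Levels of the 10 galectin genes per exon length, with 1 point for each of 15 samples (CPM per kb on a log axis, Ag, SiO2 and Control from left to right for each gene, genes in order of mean level). The genes lec-4, lec-11 and lec-3, with means of 48.9, 41.5 and 39.4 CPM per kb, sit apart from the other 7.

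Summed over the family, expression was 3348 ± 433 CPM in Ag, 3418 ± 321 CPM in SiO2 and 3775 ± 522 CPM in Control worms (SD, n = 5 each). The 3 ranges overlapped, from 2747 to 3824 in Ag, 2894 to 3741 in SiO2 and 3124 to 4317 CPM in Control. No test was run on the total.

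In Ag worms lec-8, the glycolipid-binding member, was at 369, 358, 484, 350 and 347 CPM, against 263, 243, 244, 289 and 271 CPM in Control worms. Every Ag sample was above every Control sample, and the highest was Ag replicate 8. The log2 fold change of Ag over Control was 0.54 (SE 0.11) with an adjusted p of 0.0107 by edgeR's quasi-likelihood test, and the exact permutation test gave p = 0.0079, the smallest it allows with 5 against 5. Without Ag replicate 8 the log2 fold change was 0.44, with lec-8 still called. RNA was taken from whole worms, so fewer cells of a type and less RNA per cell cannot be told apart in any of these results.

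The other 9 members did not pass the test between Ag and Control. Of all genes tested in that comparison, 4.35% were called higher and 3.41% lower, and among the members 1 of 10 was called higher and 0 of 10 lower, with 4 of 10 at an unadjusted p under 0.05. By p in edgeR, lec-3 at 0.0452 ranked 5896 of 20669 genes, and lec-11, over the limit at 0.111, ranked 8785. Unadjusted counts given for Ag against Control in later paragraphs stand beside the same ranks. DESeq2 called 1 of 10 members as well, and 3167 genes in all. Members whose groups did not overlap numbered 1 of 10, against 9.2% of all genes. The median log2 fold change of the members was 0.00, beside -0.01 over all genes.

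Within that median the short and the long members lay on different sides. The 5 short members had log2 fold changes between 0.07 and 0.54, and the 5 long ones had values between -0.53 and -0.07. These signs are a description and were not tested as a set. Outside the set, lec-12 has a longest coding sequence of 340 amino acids but was at 0.13, the sign of the short members. The other gene there, lec-7, with 179 amino acids, was at 0.33. Neither was called. The log2 fold changes of lec-6 and lec-9, at 0.08 and 0.07, turned to -0.05 and -0.04 without Ag replicate 8. In the same omission lec-10 was at 0.14, against 0.27 with all samples, and lec-11 at 0.08, against 0.21.

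Of the long members lec-2 had the lowest estimate. It was at 1639, 1786, 1050, 848 and 1103 CPM in Ag worms and at 1262, 2468, 2179, 1988 and 1367 CPM in Control worms. The groups overlapped and replicates spread widely, so the log2 fold change of -0.53 (SE 0.21) had an adjusted p of 0.118 in edgeR. All 5 Ag values of lec-2 were below the Control mean, and so were those of lec-3, whose log2 fold change was -0.32 (SE 0.15, adjusted p 0.158 in edgeR). For lec-10 all 5 Ag values were above the Control mean, with a log2 fold change of 0.27 (SE 0.11) and an adjusted p of 0.138 in edgeR.

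**Figure D2:**
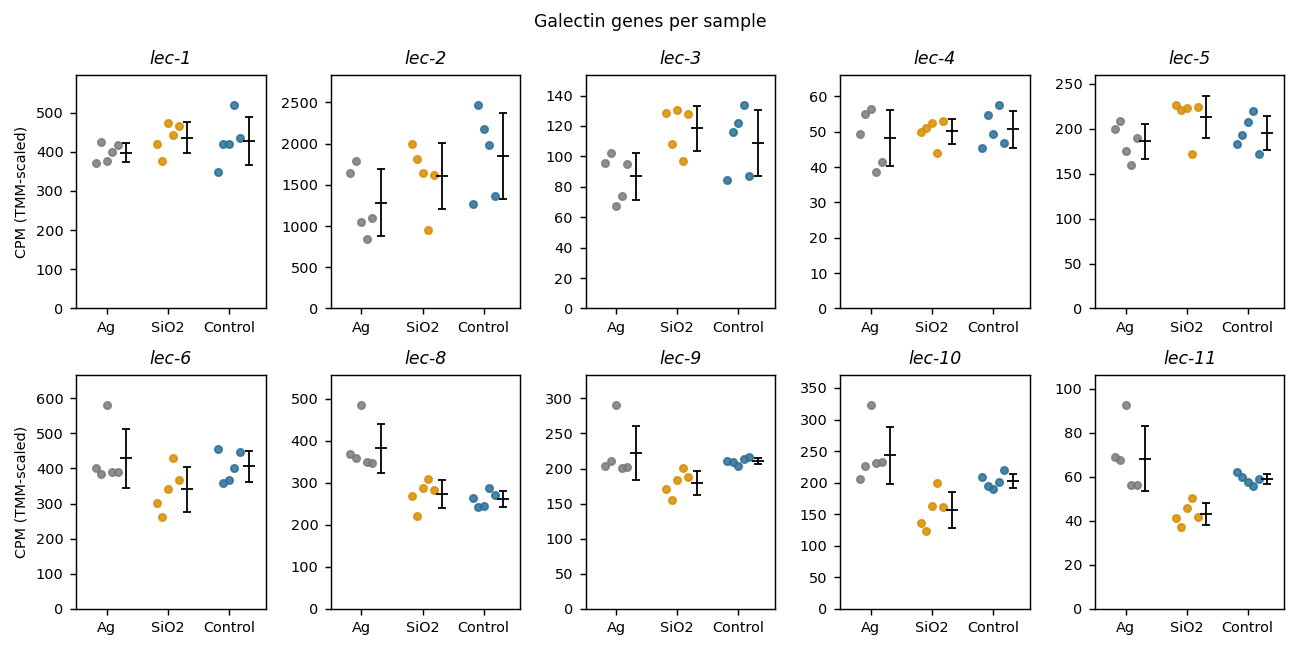
CPM (TMM-scaled) of each galectin gene in every sample, with 5 points each for Ag, SiO2 and Control and the mean ± SD beside them. The lec-8 panel shows all Ag samples (347 to 484 CPM) above all Control samples (243 to 289 CPM), and the lec-11 panel shows all SiO2 samples (37.02 to 50.2 CPM) below all Control samples (55.8 to 62.2 CPM).

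In SiO2 worms lec-11 was at 41.1, 37.02, 45.8, 50.2 and 41.5 CPM, against 62.2, 59.9, 57.5, 55.8 and 58.8 CPM in Control worms. The groups did not overlap. The log2 fold change of SiO2 over Control was -0.45 (SE 0.10), the adjusted p was 0.0264 in edgeR, and the exact permutation test gave p = 0.0079. The call was narrow. It was lost when Control replicate 1, 3 or 5 or SiO2 replicate 11, 12 or 13 was left out, with log2 fold changes of -0.52 to -0.40 and adjusted p values of 0.00557 to 0.0852 over the 10 omissions, and when all 15 samples were fitted together (adjusted p 0.0918 in edgeR).

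Between SiO2 and Control 1.91% of all genes were called higher and 0.743% lower, and of the members 0 of 10 were called higher and 1 of 10 lower, with 3 of 10 at an unadjusted p under 0.05. By p in edgeR, lec-9 at 0.0162 ranked 1736 of 20739 genes, and lec-6, over the limit at 0.0537, ranked 3226. DESeq2 called 1 of 10 members, and 995 genes in all. The groups did not overlap for 2 of 10 members, lec-9 and lec-11, against 3.73% of all genes. The members' median log2 fold change was -0.12, beside 0.01 over all genes. Of the 5 short members 4 had negative values, and lec-8 was positive at 0.07.

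The values of lec-9 were 171, 156, 183, 200.4 and 189 CPM in SiO2 worms and 211, 209.7, 204, 214 and 216 CPM in Control worms. No SiO2 sample reached a Control sample, yet the log2 fold change was only -0.23 (SE 0.09) and the adjusted p 0.194 in edgeR. Control worms varied little here, with a coefficient of variation of 2.14%, against 9.55% in SiO2 worms. The gene lec-10, linked to oxidative stress, was at 136, 124, 163, 199 and 161 CPM in SiO2 worms and at 208, 194, 190, 201 and 219.5 CPM in Control worms. All 5 SiO2 values of lec-10 were below the Control mean, with a log2 fold change of -0.37 (SE 0.11) and an adjusted p of 0.106 in edgeR. Without SiO2 replicate 14, its highest SiO2 sample, lec-10 was called, with a log2 fold change of -0.48 and an adjusted p of 0.00979 in edgeR.

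The prototype galectin lec-6 was at 303, 261, 343, 429 and 367 CPM in SiO2 worms and at 456, 358, 367, 401 and 446 CPM in Control worms. These overlapped, and the log2 fold change was -0.25 (SE 0.12, adjusted p 0.345 in edgeR). None of the long members came near the threshold, with log2 fold changes between -0.21 for lec-2 and 0.13 for lec-5.

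**Figure D3:**
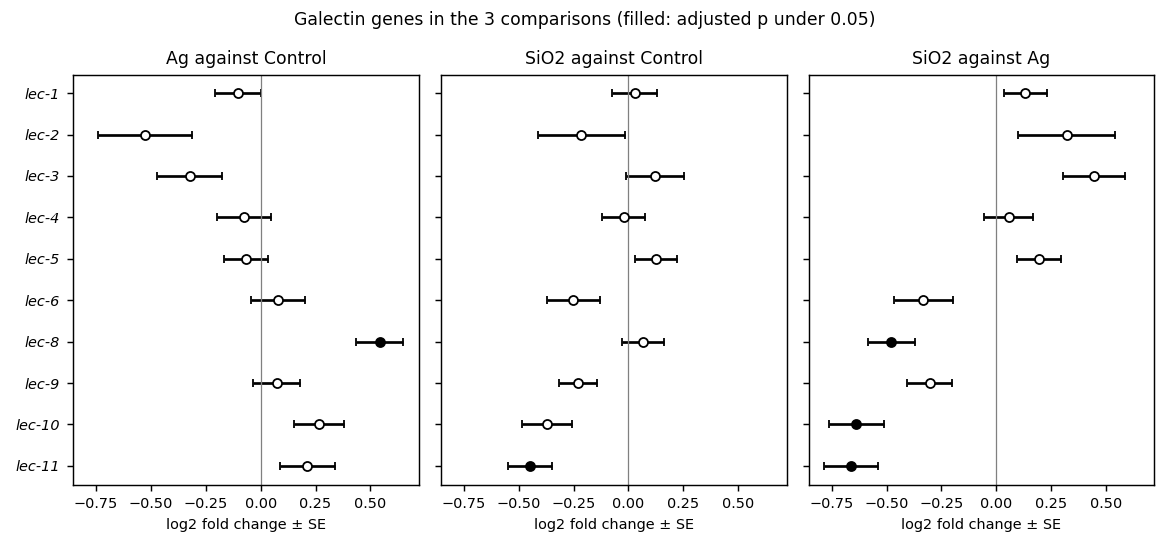
Log2 fold change ± SE of each galectin gene in the comparisons of Ag with Control, SiO2 with Control and SiO2 with Ag, with filled points for an adjusted p under 0.05 in edgeR. In the comparison of SiO2 with Ag the 5 short members lie left of 0, between -0.66 and -0.30, and the 5 long members right of it, between 0.06 and 0.45.

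The clearest separation of the family was between the particles. Since both comparisons above share the Control samples, SiO2 was tested directly against Ag in the fit of all 15 samples. Of all genes 2.04% were called higher in SiO2 and 1.36% lower. Of the members 0 of 10 were higher and 3 of 10 lower, with 6 of 10 at an unadjusted p under 0.05. By p in edgeR, lec-6 at 0.0235 ranked 2936 of 21180 genes, and lec-5, over the limit at 0.0663, ranked 5208. DESeq2 called 4 of 10, the additional one being lec-9. For 4 of 10 members (lec-8, lec-9, lec-10 and lec-11) the groups did not overlap, against 4.8% of all genes.

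The member lec-11 differed most. It was at 41.1, 37.02, 45.8, 50.2 and 41.5 CPM in SiO2 worms and at 68.7, 67.6, 92.4, 56.3 and 56.0 CPM in Ag worms. The log2 fold change of SiO2 over Ag was -0.66 (SE 0.12, adjusted p 0.00443 in edgeR), or 0.632 times the Ag level. For lec-10 the SiO2 samples were at 136, 124, 163, 199 and 161 CPM and the Ag samples at 205, 226, 322, 231 and 232 CPM. Its log2 fold change was -0.64 (SE 0.13, adjusted p 0.00776 in edgeR). For lec-8 the SiO2 samples were at 268, 221, 288, 310 and 284 CPM, all under the lowest Ag sample at 347 CPM, and the log2 fold change was -0.48 (SE 0.11, adjusted p 0.0174 in edgeR). The exact permutation test gave p = 0.0079 for each of the 3. They stayed called when any 1 of the 15 samples was left out and under all 8 other settings. Without Ag replicate 8 the log2 fold changes were -0.53 for lec-11, -0.52 for lec-10 and -0.38 for lec-8.

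The median log2 fold change of the members in this comparison was -0.12, beside 0.01 over all genes. Of the long members lec-3 had the highest estimate, at 128, 108, 131, 96.8 and 128 CPM in SiO2 worms and 95.8, 102, 67.1, 74.0 and 94.8 CPM in Ag worms. The log2 fold change of lec-3 was 0.45 (SE 0.14, adjusted p 0.0854 in edgeR). For lec-9 the log2 fold change of SiO2 over Ag was -0.30 (SE 0.10, adjusted p 0.0991 in edgeR). Neither was called.

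The remaining long members changed little against their spread. For lec-1, a tandem-repeat galectin, the means were 398 ± 23.9 CPM in Ag, 437 ± 39.2 CPM in SiO2 and 428 ± 61.4 CPM in Control worms (SD, n = 5 each). For lec-4 they were 48.2 ± 7.95, 50.1 ± 3.59 and 50.8 ± 5.22 CPM in the same groups, and for lec-5 they were 186 ± 19.6, 213 ± 23.4 and 195 ± 18.9 CPM. In these 3 genes all groups overlapped in every comparison, and the lowest adjusted p in edgeR was 0.27.

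**Figure D4:**
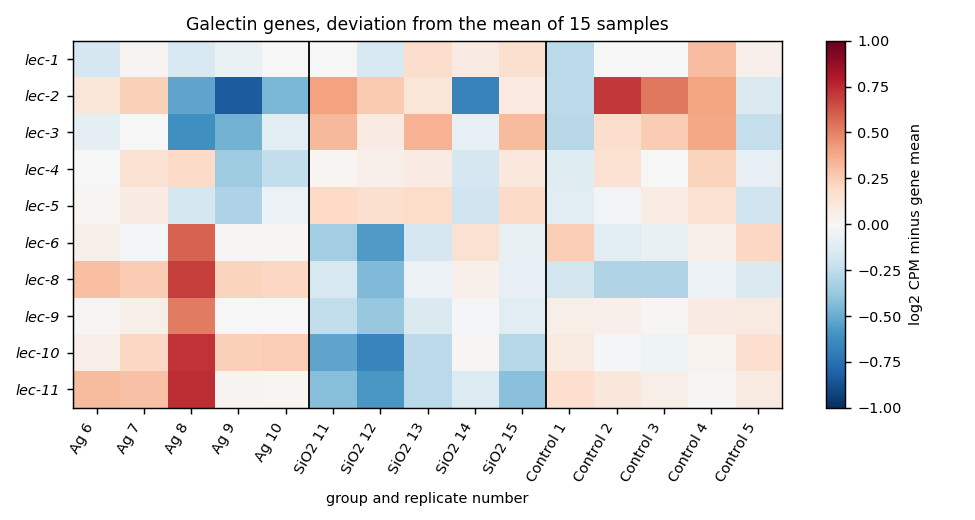
Deviation of each galectin gene's log2 CPM from its mean over 15 samples, by sample (columns, Ag then SiO2 then Control) and gene (rows), in log2 units from -1 to 1. Ag replicate 8 is high in all 5 short members, at 484 CPM for lec-8 and 322 CPM for lec-10 (others of Ag 205 to 232 CPM), and SiO2 replicate 12 is the lowest sample for each of them.

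One Ag sample stood out among the short members. In Ag replicate 8 lec-6 was at 580 CPM (others of Ag 383 to 400), lec-8 at 484 (347 to 369), lec-9 at 290.1 (201 to 211) and lec-10 at 322 CPM (205 to 232). In that sample the 5 intestine markers summed to 1770 CPM, against 1245 to 1343 CPM in the other Ag samples, and the 6 markers of molting larvae summed to 536 CPM, against 1037 to 1258 CPM. Over the groups, the intestine markers ranged from 1245 to 1770 CPM in Ag, 1024 to 1260 CPM in SiO2 and 1203 to 1483 CPM in Control worms, and none of the 5 was called in edgeR in any comparison, with 1, 1 and 2 of 5 at an unadjusted p under 0.05 in Ag against Control, SiO2 against Control and SiO2 against Ag and 1 called lower in the last by DESeq2. The 2 in SiO2 against Ag went opposite ways, with log2 fold changes of -0.40 for act-5 and 0.38 for ges-1. Most of the summed level came from act-5 and ifb-2, at means of 593 and 605 CPM in Ag worms. The part of the intestine markers in the differences of the short members was not tested. Other lists had these summed levels. Oocyte markers summed to 1846 to 3351 CPM in Ag, 1199 to 2870 CPM in SiO2 and 1290 to 2448 CPM in Control worms, with 0 of 5 called in edgeR, 3 of 5 at an unadjusted p under 0.05 in Ag against Control and 2 of 5 called higher there by DESeq2. Body wall muscle markers summed to 2259 to 3156 CPM in Ag, 2561 to 3264 CPM in SiO2 and 2537 to 3996 CPM in Control worms, with 0 of 5 called by either tool and 1 of 5 at an unadjusted p under 0.05 in Ag against Control. Neuron markers summed to 205 to 310 CPM in Ag, 229 to 351 CPM in SiO2 and 261 to 350.1 CPM in Control worms. In Ag against Control the median log2 fold change of the 5 neuron markers was -0.37, with 0 of 5 called in edgeR, 4 of 5 at an unadjusted p under 0.05 and 2 of 5 called lower by DESeq2. Of the sperm markers 0 of 6 were called in edgeR in that comparison, with 3 of 6 at an unadjusted p under 0.05 and 3 of 6 called higher by DESeq2. The molting markers had 3 of 6 at an unadjusted p under 0.05 there and none called by either tool. The part of these lists in the members' values was not tested. In edgeR the called genes among the marker lists were 4 of 6 yolk genes higher in Ag, 3 of 6 epidermis and cuticle genes and 1 of 6 sperm genes higher in SiO2 than in Control, and 1 of 5 pharyngeal muscle genes higher in SiO2 than in Ag. The 3 epidermis and cuticle genes, rol-6, bli-1 and bli-2, had low means of 1.51, 0.44 and 0.51 CPM in Control worms. Only these 3 of the 6 had positive log2 fold changes. The list summed to 636 to 934 CPM in SiO2 and 649 to 932 CPM in Control worms.

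The members were also compared with each other across the samples, after each group's mean was removed, so that group differences did not enter. Of the 45 pairs 29 were positively correlated by Pearson's r, and 17 had a permutation p of r under 0.05 after adjustment over the pairs. All 10 pairs of short members were positive, with r between 0.76 and 0.94, and all 10 were among the 17. By Spearman's rho the pairs of lec-11 did not pass. Their adjusted permutation p of rho was 0.227 with lec-10, 0.126 with lec-6, 0.0585 with lec-8 and 0.0565 with lec-9. Within Control alone lec-11 had r of 0.28, 0.40, -0.37 and 0.001 with these genes in the same order. All 10 pairs of long members were positive too, with r between 0.15 and 0.87, and 5 of them passed by r. Of these, lec-2 with lec-5 and lec-3 with lec-5 also passed by rho (adjusted permutation p 0.0234 and 0.00562). The pairs lec-2 with lec-3, lec-2 with lec-4 and lec-4 with lec-5 did not (0.0585, 0.148 and 0.209). Of the 25 pairs that joined a short and a long member 16 were negative, and the 2 that passed were both negative.

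The highest r was that of lec-6 with lec-10, at 0.94 (Spearman's rho 0.88, adjusted permutation p 0.00394), and it was 0.85 without the 2 samples farthest from the median. For lec-2 with lec-5 r was 0.87, and for lec-3 with lec-5 it was 0.85. For lec-2 with lec-10 r was -0.64 (rho -0.71, adjusted permutation p 0.0411), and -0.61 without the 2 farthest samples. Part of the pattern rested on single samples. Without Ag replicate 8 and SiO2 replicate 14, the short pairs kept r between 0.25 and 0.86, the lowest being lec-10 with lec-11, whereas of the short with long pairs 14 of 25 were then positive. All genes of a sample share its depth scaling and the stage of its worms, so these are descriptions of libraries, not of control between genes. Molting markers summed to 1062 to 1762 CPM within Control alone, and their part in the correlations was not tested.

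**Figure D5:**
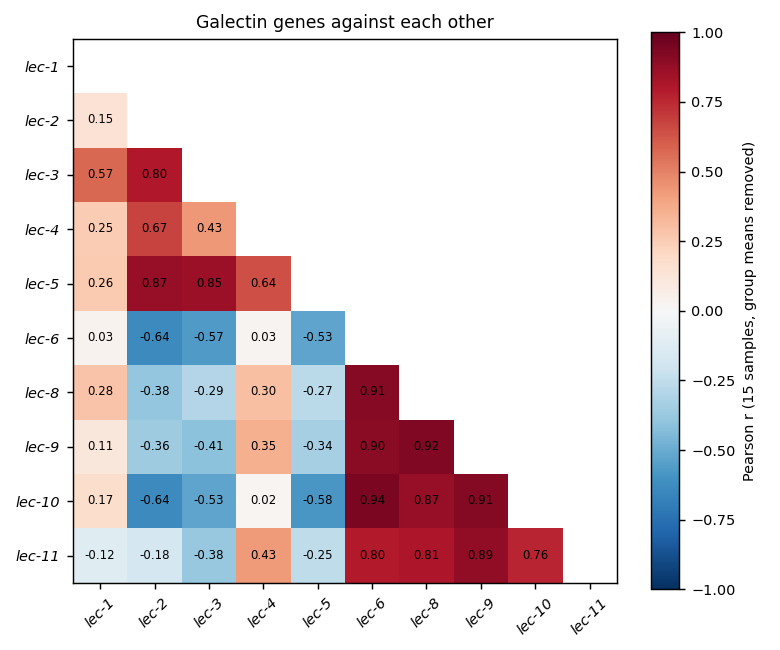
Pearson r between galectin genes over 15 samples with group means removed (colour from -1 to 1, value in each cell). The 10 pairs of lec-6, lec-8, lec-9, lec-10 and lec-11 form a block with r of 0.76 or more, and lec-2 with lec-6 and with lec-10 stands at -0.64.

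By a rule that took the 3 genes with the highest r over the 15 samples, out of 9357 genes with a mean of at least 10 CPM, the genes most like lec-8 were hsp-17, of the small heat shock proteins (r 0.96), the MAP kinase mpk-2 (0.94) and the omega-3 desaturase fat-1 (0.94). All 3 were called higher in Ag than in Control, with log2 fold changes of 1.05, 1.30 and 0.35 and adjusted p values of 0.00235, 0.000146 and 0.0477 in edgeR. Most like lec-10 were the claudin-like clc-1 (0.96), K10D11.5 (0.95) and C16B8.3 (0.94). Most like lec-11 were the tetraspanin tsp-2 (0.93), clc-1 (0.93) and C16B8.3 (0.93). Against Control, SiO2 worms had a clc-1 log2 fold change of -0.57 (adjusted p 0.0306 in edgeR) and tsp-2 one of -0.79 (adjusted p 0.00436), both called lower. The value of K10D11.5 was -0.64 (adjusted p 0.0382 in edgeR), also called lower, and that of C16B8.3 was -0.24 (adjusted p 0.164 in edgeR), not called. Here group differences were left in, so genes that changed between groups could rank high for that alone.

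Enzymes that make galectin ligands were read in the same fits. Of 14 genes for N-glycan core fucose and galactosyl-fucose synthesis, 1 was called higher in Ag than in Control and 0 lower. None was called with SiO2 in either comparison. Over all genes 4.35% were called higher and 3.41% lower in Ag than in Control. At an unadjusted p under 0.05 there were 5 of 14 in Ag against Control, 2 of 14 in SiO2 against Control and 3 of 14 in SiO2 against Ag. DESeq2 called 2 higher in the first, beside 1790 higher over all genes, 0 in the second and 1 lower in the last. The gene called in Ag was gly-14, an N-acetylglucosaminyltransferase, at 2.22 ± 0.26 CPM in Ag and 1.27 ± 0.29 CPM in Control worms (SD, n = 5 each), and its log2 fold change was 0.80 (SE 0.22, adjusted p 0.0378 in edgeR). The genes fut-8 and galt-1 were not called in edgeR. For fut-8, which adds the core fucose, the log2 fold changes were -0.19 in Ag and 0.01 in SiO2 against Control (adjusted p 0.288 and 0.991 in edgeR), and for galt-1, which adds galactose to it, they were -0.15 and -0.23 (adjusted p 0.408 and 0.500 in edgeR). The list's median log2 fold changes were -0.04 in Ag against Control, 0.01 in SiO2 against Control and -0.06 in SiO2 against Ag, beside -0.01, 0.01 and 0.01 over all genes.

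Of 8 genes for glycosphingolipid synthesis, the route to glycolipids bound by LEC-8, 2 were called higher in Ag than in Control and 0 lower. Of the 8, 4 had an unadjusted p under 0.05 there and 3 were called higher by DESeq2. Over all genes edgeR called 4.35% higher in that comparison, and DESeq2 called 1790 genes higher. The mannosyltransferase gene bre-3 was at 88.1 ± 4.08 CPM in Ag and 64.6 ± 5.38 CPM in Control worms (SD, n = 5 each), and its log2 fold change was 0.45 (SE 0.09, adjusted p 0.0111 in edgeR). The ceramide glucosyltransferase gene cgt-3 was at 153 ± 5.78 CPM in Ag and 119 ± 16.2 CPM in Control worms, and its log2 fold change was 0.36 (SE 0.10, adjusted p 0.0404 in edgeR). The N-acetylglucosaminyltransferase gene bre-5 was not called, at 0.18 in Ag and -0.01 in SiO2 against Control. No gene of this list was called in either comparison with SiO2, where 1 and 3 of the 8 had an unadjusted p under 0.05 against Control and Ag and DESeq2 called none. The median over the 8 genes was 0.26 for Ag against Control, 0.05 for SiO2 against Control and -0.19 for SiO2 against Ag on the log2 scale. Over all genes these medians were -0.01, 0.01 and 0.01. The call of bre-3 held without any 1 of the 10 samples, while cgt-3 was lost in 8 and gly-14 in 6 of 10 omissions, with adjusted p values up to 0.110 and 0.113.

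The lec genes outside the set were measured too. In SiO2 against Ag the log2 fold change was -0.14 for lec-12, long by its coding sequence, and -0.20 for lec-7, a short one. Both had the sign of the short members there. Both lec-7 and lec-12 were tested and neither was called, lec-7 with only 15 to 50 reads in a library and lec-12 at 57.5 ± 5.79 CPM in Ag, 52.1 ± 3.08 CPM in SiO2 and 52.6 ± 2.80 CPM in Control worms (SD, n = 5 each).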

How the data were processed

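Gene counts for the 15 libraries were made by the authors with HTSeq 0.9.1 in intersection-strict mode, from reads trimmed with Trim Galore 0.4.5 and aligned to WBcel235 with HISAT2 2.1.0. The authors also deposited estimated counts from Kallisto, which were rounded to whole numbers and used as an alternative. The strand setting is not given in the sources used here. Members and lists were chosen with earlier results of these data known. Genes with at least 3 counts in total were tested with edgeR 4.0.16 (R 4.3.3), TMM and the quasi-likelihood F test, 5 samples against 5 for each particle against Control and all 15 samples in one fit for SiO2 against Ag. The adjusted p is Benjamini-Hochberg over all tested genes, and a call needed one under 0.05. The SE is the log2 fold change divided by the square root of F. Single members were also tested by exact two-sided permutation of log2 CPM (prior count 2), and pairs by 100000 permutations within groups. Exon lengths and coordinates are from the Ensembl annotation of WBcel235. Nothing in the labels states that samples of a group came from separate cultures, so p values measure the spread between these samples. All members were named. Genes of the related lists were named where called, with galt-1, fut-8 and bre-5 in any case, and the genes most like a called member were the 3 with the highest r. The fits were tested on simulated data, with planted changes larger than that of any member. Recovery of changes as small as those of the members was not tested. Alternatives were the likelihood ratio test, DESeq2 1.42.0, other filters and scaling, Kallisto, other samples in the fit, and each sample left out.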

Additional observations from a re-analysis of the deposited data

Results flagged for a closer look

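In all, 30 groups of 5 samples (10 genes in 3 groups) were examined for a sample far from the others, and chance alone would single out about 1 in 20 such groups. Ag replicate 8 stood far above the other 4 Ag samples in 4 members. There lec-6 was at 580 CPM, lec-8 at 484 CPM, lec-9 at 290.1 CPM and lec-10 at 322 CPM. In SiO2 replicate 14 lec-5 was at 172 CPM, below the other SiO2 samples at 221 to 226 CPM. The 4 high values share a library and are not independent of each other.

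The effect of SiO2 differed from that of Ag in 3 members by the direct test between them in edgeR. The log2 fold change of SiO2 over Ag was -0.48 for lec-8, -0.64 for lec-10 and -0.66 for lec-11, with adjusted p values of 0.0174, 0.00776 and 0.00443. In all 5 SiO2 samples each of the 3 genes was below all 5 Ag samples.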

How the results depend on the processing

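No paired analysis was possible because replicate numbers run once through all 15 samples and recur in no other group. The number of genes called with Ag against Control was 1604, and it was 2763 by the likelihood ratio test, 3167 by DESeq2 and 353 to 1833 with each sample left out in turn. With SiO2 against Control it was 551, and 1095 by the likelihood ratio test, 995 by DESeq2, 222 in the fit of all 15 samples and 251 to 853 with each sample left out. With SiO2 against Ag it was 720, and 1474 by the likelihood ratio test, 1647 by DESeq2, 409 in the fit of those 2 groups alone and 392 to 2052 with each sample left out. Of the members, 1 was called in SiO2 against Control, but 0 in the fit of all 15 samples and 0 to 2 with each sample left out. In SiO2 against Ag 3 were called, and 3 to 6 with each sample left out, 6 without SiO2 replicate 14. The sign of some uncalled members turned. For SiO2 against Ag lec-4 was -0.017 with Kallisto estimated counts and -0.014 to 0.12 with each sample left out. For SiO2 against Control lec-4 ranged from -0.068 to 0.020 and lec-1 from -0.046 to 0.10, and for Ag against Control lec-6 ranged from -0.054 to 0.12 and lec-9 from -0.043 to 0.10. The call of lec-8 in Ag held under all 8 settings and all 10 omissions. The cause of these differences was not tested. The same settings for the called genes of the related lists, and the pair correlations without Ag replicate 8 and SiO2 replicate 14, were chosen after seeing the data.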

Other observations

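Chosen after their values were seen, the genes most like lec-3 over the 15 samples were dim-1, a muscle protein gene (r 0.98), D2092.4 (0.97) and nhr-41 (0.97), and those most like lec-2 were the kinase gene prk-2 (0.95), coel-1 (0.94) and the sirtuin gene sir-2.2 (0.94). None of the 6 was called in any of the 3 comparisons in edgeR.

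The deposited Kallisto estimates matched the HTSeq counts closely for lec-8, at 100.04 to 100.4% of the reads, but not for every member. They gave 71.2 to 77.5% for lec-9, 79.6 to 83.5% for lec-10 and 43.7 to 50% for lec-6. The calls of the members were the same with either count.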
